A study of Rattus norvegicus with 12 samples.

Results

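The ATP-binding cassette (ABC) drug and organic anion exporters were examined in rat L6 myotubes treated with GR24, pinosylvin or resveratrol. They comprised 9 genes, *Abcc1*, *Abcc2*, *Abcc3*, *Abcc4*, *Abcc5*, *Abcb1a*, *Abcb1b*, *Abcb6* and *Abcg2*, found among 16581 named genes by matching the RefSeq accession of each array probe to these symbols. They were represented by 13 of 45598 probes. Testing required a signal well above background on every array of some group. Of the 9 genes, 7 met this with at least 1 probe, while *Abcb1a* and *Abcg2* did not and were not tested.

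ABC exporters use the energy of ATP to move compounds across a membrane and out of the cytosol. The Abcc members, also called multidrug resistance-associated proteins, carry organic anions, many of them conjugates of drugs or hormones with glutathione, glucuronate or sulfate. *Abcb1a* and *Abcb1b* encode the P-glycoproteins of rodents, which expel bulky hydrophobic drugs, *Abcg2* encodes the breast cancer resistance protein, and *Abcb6* encodes a transporter linked to porphyrin and heme handling. In skeletal muscle, exporters of these families are known to limit how much of a drug is retained in the fibre.

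L6 is a rat skeletal muscle line whose myoblasts fuse into myotubes when serum is lowered. The 4 groups were L6 myotubes given 60 µM GR24, a synthetic analog of the strigolactone plant hormones, 60 µM pinosylvin, 60 µM resveratrol, or the solvent DMSO alone as the control, which the compounds were also dissolved in. Treatment lasted 24 h in every group, after 6 days of differentiation in horse serum as the labels have it, and the methods of the study place it 1 day later. Each group had 3 arrays, 1 from each of 3 independent experiments with a single batch of cells. P-values therefore measure the spread between cultures of 1 batch, in the main fit together with differences between the experiments and the array slides.

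Per array, 58.0% to 64.3% of 58717 spots were well above background, and arrays of the same group correlated at 0.990 to 0.997 over the tested probes. The number of arrays limits the precision. Replicates 1 and 2 of every group were on slide 1 and replicate 3 on slide 2. A level is a log2 processed signal relative to the 75th percentile of the array, so a level of 0 lies at that percentile, and levels of different probes are not comparable. A log2 fold change is the difference of the mean levels of 2 groups, and values given for a rise or fall are on this log2 scale. It was tested with limma over 24279 probes and adjusted by the Benjamini-Hochberg method with a two-sided threshold of 0.05. The comparisons with the control share the same 3 control arrays.

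The cultures carried the markers of myotubes. All 13 myotube marker genes with a probe were well above background on each of the 12 arrays. Their mean log2 level was 4.09, 4.08 and 4.00 on the control arrays, 2.13, 2.02 and 2.16 with GR24, 4.29, 4.26 and 4.19 with pinosylvin, and 3.68, 3.74 and 3.67 with resveratrol. The GR24 arrays lay below all others, the resveratrol arrays lay below the control, and the pinosylvin arrays lay above it. With GR24, 10 of the 13 were lower and 0 higher (0 also at an unadjusted p under 0.05; median log2 fold change -1.67), led by *Myog*, a transcription factor of muscle differentiation, at -5.83 (SE 0.145). Resveratrol lowered 6 (median -0.30) and raised 0, likewise 0 at an unadjusted p under 0.05, while pinosylvin raised 2 and lowered 1 (median 0.21). Of 10741 named genes with a tested probe, 36.1% were higher and 26.7% lower with GR24. These shares were 8.63% and 10.3% with resveratrol, and 8.59% and 9.77% with pinosylvin. In RNA from whole cultures, fewer myotubes and less muscle RNA per myotube cannot be told apart. Whether the fall of muscle genes had a part in the exporter changes given below was not tested.

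Markers of undifferentiated myoblasts moved both ways, with 3 of 9 tested genes higher and 4 lower with GR24, 2 higher and 5 lower with pinosylvin, and 2 higher and 3 lower with resveratrol. With GR24 these are 33.3% and 44.4%, beside 36.1% and 26.7% of all named genes. With pinosylvin they are 22.2% and 55.6%, beside 8.59% and 9.77%. With resveratrol they are 22.2% and 33.3%, beside 8.63% and 10.3%. The median log2 fold changes of the 9 were -0.35, -0.33 and -0.0070. The mean level of the 9 per array was 0.62 to 0.71 in the control and -0.11 to 0.047 with GR24. It was 0.13 to 0.25 with pinosylvin and 0.44 to 0.54 with resveratrol. *Mki67*, a gene of dividing cells, had a mean of 4.14 in the control and 1.31, 2.49 and 3.33 with the compounds in this order. For *Ccna2*, also a gene of dividing cells, the means were 2.75, then -0.70, 0.83 and 1.47. Both genes are among the 9, so the mean level of the list holds their fall. By contrast, 3 other genes of the list were higher with GR24, and 2 with each of the other compounds. Markers of other cells were in part near background. None of 4 hepatocyte and 2 adipocyte markers with a probe could be tested. *Alb*, *Cyp7a1*, *Ttr* and *Adipoq* were well above background on none of the 12 arrays, *Apoa1* on 1 GR24 array, and *Fabp4* on 1 GR24 and 1 resveratrol array. Of 4 macrophage markers, *Ptprc* was well above background on no array, *Adgre1* on 1 array each of control, GR24 and resveratrol, and *Csf1r* and *Cd68* on all 12. *Csf1r* did not change past the threshold with GR24 (log2 fold change -0.032, adjusted p = 0.954), whereas *Cd68*, a lysosomal protein also present in other cells, rose by 2.67 (SE 0.172, adjusted p = 4.11e-07). Of 3 tested endothelial markers, 0 passed the threshold with any compound, and 1, *Tek*, had an unadjusted p under 0.05 with GR24. Of the untested ones, *Pecam1* was well above background on 0 control, 2 GR24, 2 pinosylvin and 1 resveratrol arrays, and *Kdr* on 1, 1, 0 and 2. Of 2 tested kidney tubule markers, *Lrp2* rose with GR24 (log2 fold change 0.69, SE 0.098, adjusted p = 0.000149). The other, *Umod*, was well above background on 1 control and 0 GR24 arrays and did not pass the threshold, and *Slc34a1* was so on none of the 12.

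GR24 raised 4 exporters of organic anions, *Abcc4*, *Abcc1*, *Abcc2* and *Abcc5*, and lowered *Abcb1b*. This was 4 of 7 tested members higher and 1 lower, where 31.5% of all tested probes were higher and 25.5% lower. The median log2 fold change of the 7 was 0.77, against 0.078 over 10741 named genes with a tested probe. *Abcc1*, *Abcc2*, *Abcc4*, *Abcc5* and *Abcb6* were put forward by the study itself from these GR24 and control arrays, so their direction here is not independent evidence. With the slide as a block, which removes differences between the slides, again 4 were higher and 1 lower, where 36.2% of tested probes were higher and 30.4% lower. With the 75th percentile over all spots, an alternative chosen after the data were seen, the call of *Abcb1b* was lost (adjusted p = 0.173) and 4 were higher, where 37.7% of tested probes were higher and 22.0% lower, and the median over them was 0.12 in place of 0.027.

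*Abcc4*, an exporter of cyclic nucleotides, prostaglandins and conjugated steroids, had levels of 0.61, 0.44 and 0.25 on the control arrays and 2.08, 2.06 and 1.77 with GR24. Every GR24 array lay above every control array, and replicate 3, on slide 2, was the lowest of its group in both. *Abcc4* rose by 1.54 (SE 0.130, adjusted p = 3.16e-06), or 2.90-fold. The value was 1.54 within slide 1 and 1.52 within slide 2. Of the 10741 named genes, 1.93% had a larger increase. A second probe of *Abcc4* rose by 1.46 (SE 0.120).

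*Abcc1*, which exports glutathione, its conjugates and leukotriene C4, had levels of 1.66, 1.38 and 1.22 in the control and 2.93, 2.79 and 2.57 with GR24. The groups did not overlap. *Abcc1* rose by 1.34 (SE 0.167, adjusted p = 5.58e-05), or 2.53-fold, with 1.33 within slide 1 and 1.35 within slide 2. Of the named genes, 2.81% rose more. A second, dim probe of *Abcc1*, well above background on 1 control array and on all 3 GR24 arrays, had a difference of 1.22 (SE 0.185). It met the filter through the GR24 arrays alone, where it is brightest, so it adds little to this result.

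*Abcc5*, an exporter of cyclic nucleotides and nucleotide analogs, had levels of 2.12, 2.22 and 1.88 in the control and 2.92, 2.88 and 2.72 with GR24. Again the lowest GR24 array exceeded the highest control array. The gene rose by 0.77 (SE 0.100, adjusted p = 7.73e-05), or 1.70-fold, with 0.73 within slide 1 and 0.84 within slide 2.

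*Abcc2*, which carries conjugates across the apical membrane of hepatocytes into bile, had a dim probe. It was tested because all 3 resveratrol arrays were well above background, and 2 of 3 arrays were in each other group. Its levels were -4.54, -5.67 and -4.57 in the control and -4.02, -4.48 and -3.89 with GR24. Control replicate 2 lay far below the other control arrays, and the lowest GR24 array was just above the highest control array. The rise of 0.79 had an SE of 0.293 and an adjusted p of 0.0392, the least precise of the increases, with 0.85 within slide 1 and 0.68 within slide 2. Without control replicate 2 it was 0.42 (adjusted p = 0.12), and the call was also lost without GR24 replicate 1 (0.74, adjusted p = 0.101) or GR24 replicate 3 (0.68, adjusted p = 0.113). It was lost without the filter (adjusted p = 0.0849) and with only the 6 arrays compared (adjusted p = 0.094), which leaves 3 members higher. With normexp background correction and the 75th percentile it shrank to 0.32 and was past the threshold (adjusted p = 0.0161).

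*Abcb1b*, a P-glycoprotein gene, went the other way with GR24. Its levels were -1.13, -1.19 and -1.33 in the control and -1.46, -1.38 and -1.44 with GR24. The GR24 arrays all lay below the control arrays, but the gap was narrow. The fall of 0.21 had an SE of 0.082 and an adjusted p of 0.0465, and the difference was -0.26 within slide 1 and -0.11 within slide 2. The call was lost without control replicate 1 (adjusted p = 0.151) or 2 (0.109) and without GR24 replicate 1 (0.123), 2 (0.0641) or 3 (0.0919). Without these arrays the difference was -0.17, -0.20, -0.20, -0.24 and -0.21. It was past the threshold with the slide as a block (adjusted p = 0.00557) but not with quantile normalization (adjusted p = 0.0689).

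*Abcb6* and *Abcc3* did not pass the threshold with GR24. *Abcb6* had levels of 3.28, 3.40 and 3.16 in the control and 3.38, 3.30 and 3.35 with GR24, 2 overlapping groups. Its log2 fold change was 0.063, with a 95% confidence interval of -0.10 to 0.23 and an adjusted p of 0.517. It passed with normexp and quantile normalization (0.17, adjusted p = 0.0443) and in the deposited table with the slide as a block (0.17, adjusted p = 0.0425), the latter an alternative chosen after the data were seen. The study lists *Abcb6* among the genes raised by GR24 on these same arrays, and the main fit here did not reproduce that call. *Abcc3*, which carries glucuronides across the basolateral membrane of epithelia, had a dim probe with control levels of -4.44, -4.60 and -3.04. Control replicate 3 stood far above the other control arrays, and above the 3 GR24 arrays at -3.67, -3.86 and -3.73. For *Abcc3* the log2 fold change of 0.28 had an SE of 0.335 and an adjusted p of 0.52, and it was 0.76 within slide 1 and -0.69 within slide 2. Without control replicate 3 it was 0.77 (adjusted p = 0.00178), and without control replicate 2 it was -0.0091.

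**Figure D1:**
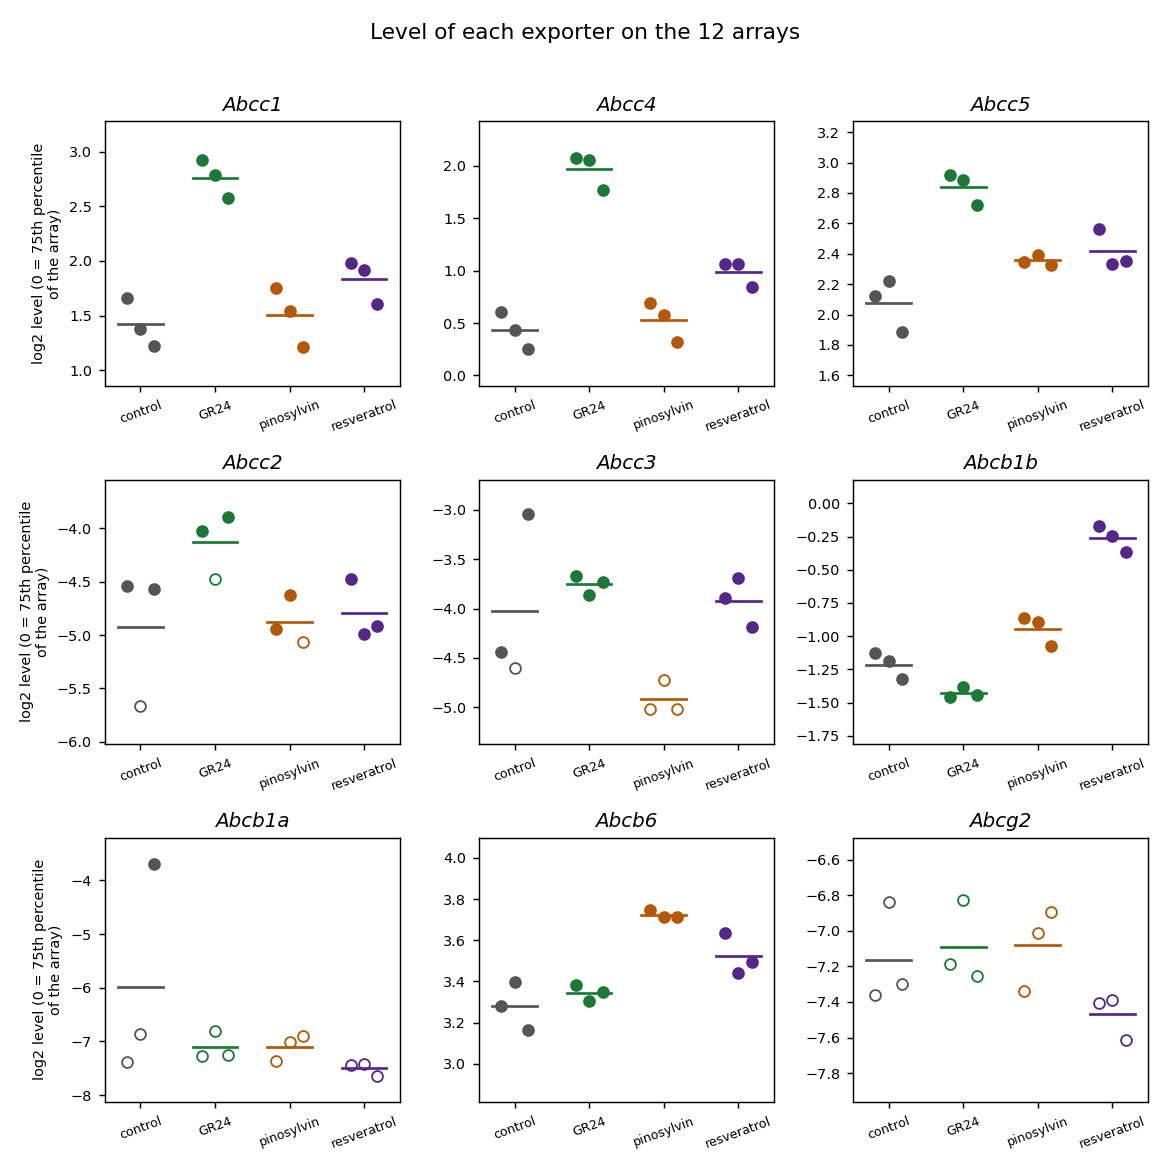
Level of each exporter on each of the 12 arrays by group, as log2 processed signal relative to the 75th percentile of the array. Points are arrays in the order of replicates 1 to 3, filled where the probe was well above background, lines are group means, and each panel has its own axis range. The GR24 arrays lie above the control arrays for *Abcc1*, *Abcc4* and *Abcc5*, and the resveratrol arrays lie highest for *Abcb1b*.

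Pinosylvin, a stilbene of pine heartwood, raised the porphyrin transporter gene *Abcb6* and, weakly, *Abcb1b*. With 2 of 7 tested members higher and 0 lower, the background was 8.28% of tested probes higher and 8.27% lower. At an unadjusted p under 0.05, limma gave 3 members higher and 1 lower, and of the 10741 named genes 1855 higher and 1596 lower. With the slide as a block, 3 were higher and 0 lower after adjustment, where 16.6% of tested probes were higher and 12.5% lower. The median log2 fold change of the 7 was 0.10, against 0.040 over the named genes.

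For *Abcb6*, the pinosylvin arrays had levels of 3.75, 3.71 and 3.71, tightly grouped and above each control array. *Abcb6* rose by 0.44 (SE 0.075, adjusted p = 0.00274), or 1.36-fold, with 0.39 within slide 1 and 0.55 within slide 2. Of the named genes, 5.11% rose more. The second probe of *Abcb6* rose by 0.44 as well (SE 0.108, adjusted p = 0.0191).

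*Abcb1b* had levels of -0.87, -0.90 and -1.07 with pinosylvin, each above the control arrays. The rise was 0.27 (SE 0.082, adjusted p = 0.0494), with 0.28 within slide 1 and 0.25 within slide 2. The call was lost without control replicate 1 (0.31, adjusted p = 0.06), 2 (0.28, adjusted p = 0.0819) or 3 (0.21, adjusted p = 0.15). It was lost too without pinosylvin replicate 1 (0.23, adjusted p = 0.158) or 2 (0.24, adjusted p = 0.15), with quantile normalization (adjusted p = 0.0994) and in the deposited table (adjusted p = 0.103).

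The 3 organic anion exporters that rose most with GR24 by adjusted p did not pass the threshold with pinosylvin. *Abcc4* had 0.69, 0.58 and 0.32 with pinosylvin, overlapping the control, and a log2 fold change of 0.10 (95% confidence interval -0.19 to 0.39, adjusted p = 0.69). *Abcc1* had 1.75, 1.55 and 1.21, and a log2 fold change of 0.080 (95% confidence interval -0.29 to 0.45, adjusted p = 0.82). *Abcc5* had 2.35, 2.39 and 2.33, all above the control arrays. Its log2 fold change of 0.28 (SE 0.100) missed the threshold at an adjusted p of 0.0846. It passed with the replicate block (0.0263) and with the slide as a block (0.01875). It also passed with quantile normalization, alone (0.0310) or after normexp (0.0348). The same held for the percentile over all spots (0.0337) and the deposited table with the slide as a block (0.0169). The dim *Abcc2* had levels of -4.95, -4.63 and -5.07 with pinosylvin and a difference from the control of 0.045 (SE 0.293) with an adjusted p of 0.952.

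*Abcc3* was well above background on none of the 3 pinosylvin arrays, at -5.02, -4.72 and -5.01. Against the control, 2 of whose arrays were well above background, its log2 difference of -0.89 did not pass the threshold (SE 0.335, adjusted p = 0.102). No bound is given for its pinosylvin arrays, since their signals exceeded the lowest signal found well above background elsewhere, and the differences rest on these dim signals. The value was -1.18 without control replicate 2, where it passed (adjusted p = 0.0462), and -0.39 without control replicate 3 (adjusted p = 0.126). It was -0.35 within slide 1, -1.97 within slide 2 and -0.29 with normexp and the 75th percentile.

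Resveratrol raised the P-glycoprotein gene *Abcb1b* most, together with *Abcc4* and *Abcc5*. With 3 of 7 tested members higher and 0 lower, 7.99% of tested probes were higher and 8.99% lower. At an unadjusted p under 0.05, limma gave 5 members higher and 0 lower, and of the 10741 named genes 1761 higher and 1671 lower. With the replicate or the slide as a block 5 were higher and 0 lower after adjustment, where 14.1% and 14.5% of tested probes were higher and 13.8% lower in both. The median log2 fold change of the 7 was 0.34, against 0.019 over the named genes.

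*Abcb1b* had levels of -0.17, -0.24 and -0.36 with resveratrol. These lay well above the control, GR24 and pinosylvin arrays, with no overlap. *Abcb1b* rose by 0.95 (SE 0.082, adjusted p = 4.68e-05), or 1.94-fold, with 0.95 within slide 1 and 0.96 within slide 2. It ranked at place 93 of 10741 named genes, with 0.857% rising more. Another probe of *Abcb1b* was well above background on none of the 12 arrays and gave no measure, so every *Abcb1b* value rests on a single probe. Probe sequences were not at hand, and whether this probe also binds *Abcb1a* RNA was not tested.

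*Abcc4* had levels of 1.06, 1.07 and 0.85 with resveratrol, between the control and GR24 arrays and apart from both. *Abcc4* rose by 0.56 (SE 0.130, adjusted p = 0.0147), or 1.47-fold, with 0.54 within slide 1 and 0.60 within slide 2. Its second probe rose by 0.50 (SE 0.120, adjusted p = 0.017). Without resveratrol replicate 1 the rise was 0.53 (adjusted p = 0.0548) and without replicate 2 it was 0.52 (adjusted p = 0.0556).

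*Abcc5* had levels of 2.57, 2.33 and 2.35 with resveratrol, all above the control arrays. It rose by 0.34 (SE 0.100, adjusted p = 0.041), with 0.28 within slide 1 and 0.47 within slide 2. The call was lost without control replicate 1 (0.37, adjusted p = 0.0795) or 3 (0.25, adjusted p = 0.112). It was lost without resveratrol replicate 1 (0.27, adjusted p = 0.143), 2 (0.38, adjusted p = 0.0619) or 3 (0.38, adjusted p = 0.066), with normexp and the 75th percentile (adjusted p = 0.0597), without the filter (adjusted p = 0.122) and with only the 6 arrays compared (adjusted p = 0.126).

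*Abcc1* had levels of 1.98, 1.92 and 1.61 with resveratrol, where replicate 3 fell among the control arrays. Its log2 fold change of 0.41 (SE 0.167) missed the threshold at an adjusted p of 0.127 and passed it with the replicate block at 0.00135. The dim second probe gave -0.19 (SE 0.185), the opposite sign. *Abcb6* had levels of 3.63, 3.44 and 3.50, above the control arrays, and its log2 fold change of 0.24 (SE 0.075) had an adjusted p of 0.0533. This narrow miss depended on the settings, since it passed in 12 alternatives, among them the replicate block (0.0306), quantile normalization (0.0192), normexp under either normalization (0.0236 and 0.00857), the deposited table (0.0138) and the fit without control replicate 2 (0.0334).

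The levels of *Abcc2* with resveratrol, -4.47, -4.99 and -4.91, overlapped the control, from which they differed by 0.13 (SE 0.293, adjusted p = 0.845). Those of *Abcc3* were -3.89, -3.69 and -4.18. Against the control the difference was 0.11 (SE 0.335, adjusted p = 0.896), with 0.73 within slide 1 and -1.14 within slide 2, and 0.60 without control replicate 3 (adjusted p = 0.0251).

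**Figure D2:**
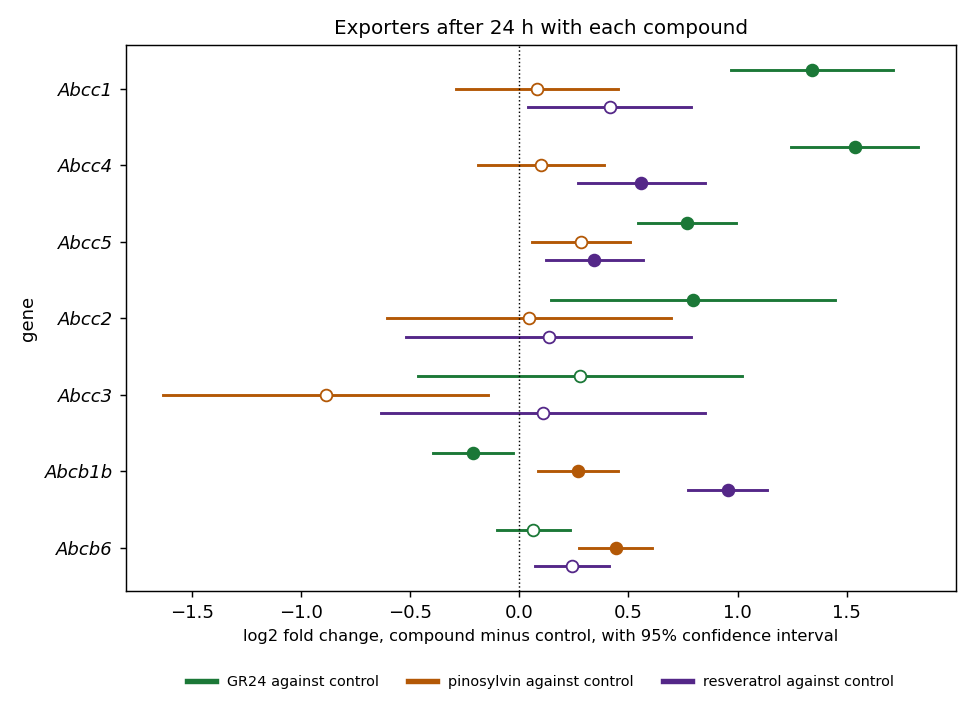
Log2 fold change of the 7 tested exporters with each compound against the DMSO control, with 95% confidence intervals from limma. Filled points have an adjusted p under 0.05. *Abcc4* and *Abcc1* lie farthest right with GR24 (1.54 and 1.34), and *Abcb1b* does so with resveratrol (0.95).

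The compounds were compared directly at their shared dose and time. Against pinosylvin, GR24 gave higher *Abcc1*, *Abcc3*, *Abcc4* and *Abcc5* and lower *Abcb1b* and *Abcb6*. These are 4 members higher and 2 lower of 7, where 29.6% of tested probes were higher and 26.8% lower. The difference was 1.44 for *Abcc4* (SE 0.130, adjusted p = 5.86e-06), 1.26 for *Abcc1* (SE 0.167, adjusted p = 9.41e-05) and 0.48 for *Abcc5* (SE 0.100, adjusted p = 0.0019). It was -0.48 for *Abcb1b* (SE 0.082, adjusted p = 0.000533) and -0.38 for *Abcb6* (SE 0.075, adjusted p = 0.00146). *Abcc3* differed by 1.17 (SE 0.335, adjusted p = 0.0124), resting on pinosylvin arrays not well above background, and with normexp and the 75th percentile the log2 difference was 0.33 (adjusted p = 0.0621). It met the filter through the GR24 and resveratrol arrays alone, where it is brightest, so its place among the 4 higher members adds little. Within slide 1 and slide 2, the differences were 1.43 and 1.45 for *Abcc4*, 1.21 and 1.36 for *Abcc1*, and 0.53 and 0.39 for *Abcc5*. They were -0.54 and -0.37 for *Abcb1b*, -0.39 and -0.37 for *Abcb6*, and 1.11 and 1.28 for *Abcc3*. For *Abcc2* the difference of 0.75 (SE 0.293) had an adjusted p of 0.05002, or 0.0342 with the replicate block and 0.0369 without GR24 replicate 2. With the 75th percentile over all spots, 5 members were higher and 2 lower, where 34.9% of tested probes were higher and 23.3% lower. The median difference over the tested probes was then 0.077 in place of -0.0031.

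Against resveratrol, GR24 gave higher *Abcc1*, *Abcc4* and *Abcc5* and lower *Abcb1b*. These are 3 members higher and 1 lower, where 27.4% of tested probes were higher and 23.9% lower. The difference was 0.98 for *Abcc4* (SE 0.130, adjusted p = 0.000115), 0.93 for *Abcc1* (SE 0.167, adjusted p = 0.000907) and 0.42 for *Abcc5* (SE 0.100, adjusted p = 0.00474). For *Abcb1b* it was -1.17 (SE 0.082, adjusted p = 1.17e-06), 2.25-fold lower with GR24. Within slide 1 and slide 2, the differences were 1.00 and 0.93 for *Abcc4*, 0.91 and 0.97 for *Abcc1*, 0.45 and 0.37 for *Abcc5*, and -1.21 and -1.08 for *Abcb1b*. *Abcc3* differed by 0.17 (adjusted p = 0.72). *Abcc2* differed by 0.66 (adjusted p = 0.0851), and this passed with only the 6 arrays compared (adjusted p = 0.0346), with normexp under either normalization (0.30 and 0.26, adjusted p = 0.0235 and 0.0267) and in the deposited table (0.43, adjusted p = 0.0264, or 0.0248 with the slide as a block). For *Abcb6* the difference was -0.18 (SE 0.075, adjusted p = 0.0721), and with the replicate block, where it passed at 0.0479, 2 members were lower, as with the slide as a block, where 32.7% and 32.8% of tested probes were higher and 28.5% lower in both. With the 75th percentile taken over all spots, 35.3% of tested probes were higher, 20.2% were lower, and their median difference was 0.13 in place of 0.024. The same alternative gave a difference of 1.08 for *Abcc4*, 1.03 for *Abcc1*, 0.53 for *Abcc5* and -1.06 for *Abcb1b*, each past the threshold.

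Pinosylvin and resveratrol are both stilbenes, and resveratrol carries an additional hydroxyl group. Between them, 0 of 7 members were higher with pinosylvin and 2, *Abcb1b* and *Abcc4*, were lower, where 7.68% of tested probes were higher and 6.85% lower. At an unadjusted p under 0.05, limma gave 1 member higher and 3 lower, and of the 10741 named genes 1588 higher and 1627 lower. With the slide as a block, 0 were higher and 3 lower after adjustment, where 14.7% of tested probes were higher and 11.9% lower. *Abcb1b* was lower with pinosylvin by a log2 difference of -0.68 (SE 0.082, adjusted p = 0.000425), or 1.61-fold, with -0.67 within slide 1 and -0.71 within slide 2. *Abcc4* differed by -0.46 (SE 0.130, adjusted p = 0.0409), with -0.43 within slide 1 and -0.52 within slide 2. The call was lost without resveratrol replicate 1 (-0.43, adjusted p = 0.111), 2 (-0.42, adjusted p = 0.13) or 3 (-0.53, adjusted p = 0.0501). It was lost without pinosylvin replicate 2 (-0.48, adjusted p = 0.0903) or 3 (-0.35, adjusted p = 0.123), without the filter (adjusted p = 0.113) and with only the 6 arrays compared (adjusted p = 0.0649), and the second probe differed by -0.37 (SE 0.120, adjusted p = 0.0709).

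The other members did not pass the threshold between the stilbenes, which does not show that these compounds act alike on them. For *Abcc1* the difference was -0.33 (95% confidence interval -0.71 to 0.039, adjusted p = 0.23), and it passed with the replicate block at 0.00466, while the dim second probe gave 0.36. For *Abcb6* it was 0.20 (95% confidence interval 0.034 to 0.37, adjusted p = 0.108), and for *Abcc5* -0.060 (-0.28 to 0.16, adjusted p = 0.773). For *Abcc2* it was -0.089 (-0.74 to 0.56, adjusted p = 0.899). *Abcc3*, not well above background on the pinosylvin arrays and well above it on the resveratrol arrays, differed by -0.997 (-1.74 to -0.25, adjusted p = 0.0763). This passed with quantile normalization (-1.11, adjusted p = 0.0491) and was -0.18 with normexp and the 75th percentile (adjusted p = 0.437).

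**Figure D3:**
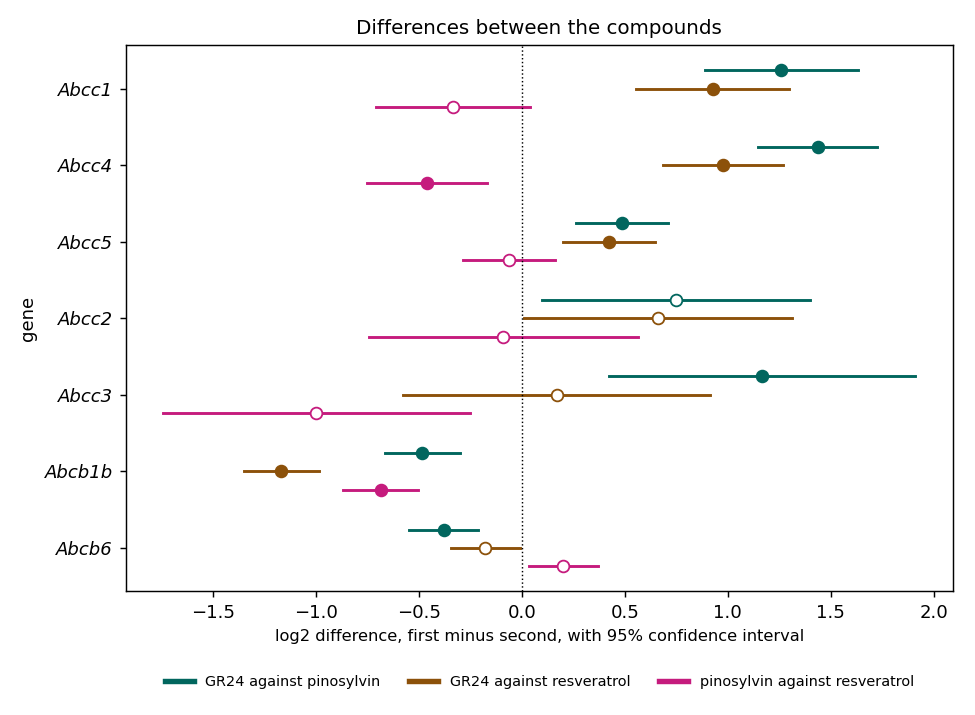
Log2 difference between compounds for the 7 tested exporters, first compound minus second, with 95% confidence intervals from limma. Filled points have an adjusted p under 0.05. *Abcb1b* lies left of 0 in all 3 comparisons (-0.48, -1.17 and -0.68), and *Abcc4* lies right of 0 for both comparisons of GR24 (1.44 and 0.98).

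By mean level, *Abcc4*, *Abcc1*, *Abcc5* and *Abcc2* had the same order of groups, GR24, resveratrol, pinosylvin and control. For *Abcc4* pinosylvin and control did not differ at the threshold. For *Abcc1* and *Abcc5*, beyond the step from GR24 to resveratrol, no neighbours differed at the threshold, and for the dim *Abcc2* none did. For *Abcb1b* the order was resveratrol, pinosylvin, control and GR24, and each neighbour differed, the last 2 steps by the calls that hung on single arrays. For *Abcb6* it was pinosylvin, resveratrol, GR24 and control, and for the dim *Abcc3* GR24, resveratrol, control and pinosylvin, with no neighbours past the threshold in either. With the replicate block, neighbours also differed for *Abcc1* (resveratrol and pinosylvin, adjusted p = 0.00466) and *Abcc5* (pinosylvin and control, 0.0263). So did resveratrol and GR24 for *Abcb6* (0.0479).

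The other 2 members gave no usable signal in these cells. *Abcg2* had levels between -7.61 and -6.83 and was well above background on none of the 12 arrays. *Abcb1a*, the other P-glycoprotein gene, was not well above background on 11 of the 12 arrays, with levels of -7.63 to -6.81. The exception was control replicate 3 at -3.70, which was also the array that stood high for *Abcc3*.

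Across the 12 arrays, which share the 4 groups, the levels of *Abcc1* and *Abcc4* followed each other closely (Pearson r = 0.991, n = 12), and *Abcc5* followed both (r = 0.905 and 0.917). *Abcb1b* did not track them (r = -0.286, -0.259 and -0.181), nor did *Abcb6* (r = -0.258, -0.268 and 0.083). *Abcb1b* and *Abcb6* had r = 0.476, and *Abcc3* and *Abcb6* r = -0.738. Of 10741 named genes, those most like *Abcc1* over the 12 arrays were *Znhit2* (r = 0.996), *Ppp3r1* (r = 0.991) and *Tcirg1* (r = 0.991), and those most like *Abcc4* were *Ppp3r1* (r = 0.996), *Commd5* (r = 0.995) and *Setd4* (r = 0.995). For *Abcc5* they were *Samd8* (r = 0.993), *Ankrd13b* (r = 0.989) and *Fhod3* (r = 0.986). For *Abcb1b* they included *RGD1562890* (r = 0.968) and *Larp1b* (r = 0.960), and for *Abcb6* they were *E2f6* (r = 0.964), *Gadd45a* (r = 0.960) and *St3gal3* (r = 0.956). The dim *Abcc2* was most like *Rapgef6* (r = 0.864), *Rcbtb1* (r = 0.858) and *Iqce* (r = 0.852), and *Abcc3* most like *Abcd2* (r = 0.912), *Mesp2* (r = 0.909) and *Radil* (r = 0.892).

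The RefSeq promoter table (build GRCr8, 250 bases before and 50 after the start of a gene) held 7 of the 9 members, all but *Abcc3* and *Abcc5*. Both strands were searched for TGACNNNGC, the core of the antioxidant response element, and for GCGTG, the core of the element bound by the Ah receptor. The first was present in 12.1% and the second in 29.7% of 33469 promoter windows. TGACNNNGC matched once among the members, in *Abcc2*, 17 bases after the start. GCGTG matched in *Abcc1* (1 match), *Abcc4* (2), *Abcb6* (3) and *Abcg2* (1), and neither motif matched in *Abcb1a* or *Abcb1b*. The windows of *Abcc1*, *Abcc4* and *Abcg2* were rich in G and C, at 73.7%, 75.3% and 68.0%, against a median of 51.7% over all windows. *Abcb1a* and *Abcb1b* have their windows on the same chromosome and strand, at chr4:26397599-26397898 and chr4:26279980-26280279, both on the minus strand.

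The 250 bases before the start are given for the 3 tested members with a match there, because *Abcc1* and *Abcc4* rose together with GR24 and *Abcb6* did not. Capitals mark the matches to GCGTG or, on the opposite strand, CACGC. A match describes these letters and is no evidence of binding. The stretches are chr10:1162368-1162617, chr15:102181365-102181614 and chr9:84125501-84125750, all on the minus strand and read in the direction of the gene.
Abcc1: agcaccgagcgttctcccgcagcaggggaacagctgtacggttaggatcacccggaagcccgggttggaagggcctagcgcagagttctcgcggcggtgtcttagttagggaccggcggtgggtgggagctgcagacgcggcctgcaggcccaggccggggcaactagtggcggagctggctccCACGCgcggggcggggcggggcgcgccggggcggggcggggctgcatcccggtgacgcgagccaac
Abcc4: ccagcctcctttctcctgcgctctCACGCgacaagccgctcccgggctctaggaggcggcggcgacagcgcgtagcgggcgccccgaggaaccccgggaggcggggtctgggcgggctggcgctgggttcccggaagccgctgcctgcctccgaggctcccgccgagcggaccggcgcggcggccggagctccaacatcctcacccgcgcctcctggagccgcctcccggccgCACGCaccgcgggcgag
Abcb6: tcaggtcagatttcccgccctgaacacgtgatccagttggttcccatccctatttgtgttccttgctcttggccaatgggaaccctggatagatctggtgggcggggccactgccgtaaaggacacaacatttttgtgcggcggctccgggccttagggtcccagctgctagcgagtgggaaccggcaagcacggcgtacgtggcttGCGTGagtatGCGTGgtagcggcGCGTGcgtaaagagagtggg

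The genes that surround the exporters were described from lists, as counts read against all 10741 named genes. Where a gene is given as at least so many fold, the mean of the brighter group is set against a mean over the dim arrays in which the lowest signal well above background replaces any signal under it, which applies to this background correction. Of these, 36.1% were higher and 26.7% lower with GR24, 8.59% and 9.77% with pinosylvin, and 8.63% and 10.3% with resveratrol. Of 37 other ABC transporter genes on the array, 24 were tested. With GR24, 6 were higher and 5 lower (median 0.11), below the share of all named genes. The cholesterol exporters *Abca1* and *Abcg1* rose by 1.90 (SE 0.169) and 0.91 (SE 0.156). The chloride channel gene *Cftr* of the Abcc subfamily was at least 5.42-fold higher. It met the filter through the GR24 arrays alone, where it is brightest, so its place among the 6 higher genes adds little. *Abcc9*, a subunit of ATP-sensitive potassium channels, fell by 1.13 (SE 0.214) to a level well above background on 1 of 3 GR24 arrays. Pinosylvin raised *Abca1* by 0.79 (SE 0.169) and *Abcg1* by 0.62 (SE 0.156) among 2 genes higher and 1 lower (median 0.058; 5 and 1 in limma without adjustment). With resveratrol 2 were counted higher, *Abca2* at 0.36 (SE 0.080) and *Cftr*, which was not well above background on any resveratrol or control array and so gave no measure of a change, and 0 lower (median 0.0056), with 3 lower at an unadjusted p under 0.05 in limma.

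Uptake carriers, which bring organic ions and nucleosides into cells, gave 12 tested genes. With GR24, 1 was higher and 5 lower (median -0.33), with pinosylvin 1 and 3 (median 0.12; 4 and 3 in limma without adjustment), and with resveratrol 1 and 2 (median -0.14). *Slc22a4*, a carrier of organic cations such as ergothioneine, was at least 9.12-fold higher with GR24 (adjusted p = 1.44e-05), and the organic anion carrier gene *Slco1a4* at least 8.53-fold lower (adjusted p = 2.39e-07). *Slc22a4* was well above background on 0 control, 3 GR24, 1 pinosylvin and 3 resveratrol arrays. It met the filter through the GR24 and resveratrol arrays alone, where it is brightest. Its place as the 1 higher gene with each of these compounds therefore adds little. *Slco1a4* met the filter through the groups other than GR24, where it is brighter. *Slco1a4* fell by 1.37 with pinosylvin (SE 0.208, adjusted p = 0.00136). The prostaglandin carrier gene *Slco2a1* fell with every compound, by 0.69 with GR24, 0.44 with pinosylvin and 0.92 with resveratrol (SE 0.118 each).

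Of 22 tested regulators known to act on exporter genes, 13 were higher and 1 lower with GR24 (median 0.49), 3 and 0 with pinosylvin (median 0.17), and 4 and 0 with resveratrol (median 0.16). At an unadjusted p under 0.05, limma gave 7 higher and 0 lower with pinosylvin and 6 and 0 with resveratrol, against 1855 and 1596 and 1761 and 1671 of the 10741 named genes. *Nfe2l2*, the gene of Nrf2, rose by 0.59 with GR24 (SE 0.114, adjusted p = 0.00123), and its log2 fold change was 0.041 with pinosylvin (adjusted p = 0.873) and 0.20 with resveratrol (adjusted p = 0.281). *Ahr*, the gene of the Ah receptor, well above background on 1 of 3 control arrays, rose by 1.46, 1.00 and 1.27 with GR24, pinosylvin and resveratrol (SE 0.150, adjusted p = 1.35e-05, 0.00124 and 0.000297). *Ahr* met the filter through the treated groups alone, where it is brighter, so its place among the higher regulators adds little. *Keap1*, which targets Nrf2 for degradation, rose by 1.25, 0.27 and 0.70 (SE 0.066). *Nr1i2*, the pregnane X receptor gene, was dim and did not pass the threshold, with -0.61, -0.22 and -0.19 (SE 0.275).

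Conjugating enzymes and glutathione supply, which make substrates of the Abcc exporters, gave 22 tested genes. With GR24, 15 were higher and 5 lower (median 1.19), with pinosylvin 8 and 3 (median 0.23), and with resveratrol 10 and 2 (median 0.45). *Gsta1*, a glutathione transferase, rose by 4.58, 2.79 and 3.35 with GR24, pinosylvin and resveratrol (SE 0.094). *Gclc*, the catalytic subunit of the first enzyme of glutathione synthesis, rose by 1.14 with GR24 and 0.85 with resveratrol (SE 0.085; adjusted p = 1.26e-06 and 0.00011), and with pinosylvin it had -0.14 (adjusted p = 0.323). The sulfotransferase gene *Sult1a1* fell by 2.26, 1.03 and 1.47.

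Genes of heme synthesis and of mitochondrial ABC partners, the setting of *Abcb6*, gave 17 tested genes, of which 13 were higher and 2 lower with GR24 (median 0.76), 4 and 0 with pinosylvin (median 0.17) and 4 and 0 with resveratrol (median 0.18). Unadjusted, limma gave 6 and 0 with pinosylvin and 6 and 1 with resveratrol. *Hmox1*, which degrades heme, rose by 4.08, 0.86 and 1.54 (SE 0.127). *Flvcr2* fell by 2.60 with GR24, rose by 0.34 with pinosylvin (SE 0.088, adjusted p = 0.0228) and did not pass the threshold with resveratrol. Among 10 tested membrane scaffold genes, 3 were higher and 4 lower with GR24 (median 0.10), 0 and 3 with pinosylvin (median -0.18), and 0 and 3 with resveratrol (median -0.058), where limma without adjustment gave 0 and 4 and 0 and 3. The caveolin gene *Cav1* fell by 0.47, 0.71 and 0.87 (SE 0.067).

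Cyclases and phosphodiesterases set the level of cyclic nucleotides, which *Abcc4* and *Abcc5* export. Of 16 tested, 1 was higher and 7 lower with GR24 (median -0.31), 1 and 1 with pinosylvin (median -0.12), and 0 and 2 with resveratrol (median -0.13; 1 and 2 in limma without adjustment). *Pde2a* fell by 2.37, 0.66 and 0.98 with GR24, pinosylvin and resveratrol (SE 0.068).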

How the data were processed

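RNA of 12 cultures was measured on Agilent 1-colour arrays. The authors deposited scanner output from Agilent Feature Extraction 12.0.0.7, whose processed signal is the intensity after the scanner software took off the background of each spot, not normalized between arrays. They also deposited a table of normalized log2 values, whose background correction, normalization and filter are not given in the sources used here.

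Control spots were left out, spots marked as outliers were set to missing, and the log2 processed signals of a probe were averaged and reduced by the 75th percentile of the array over probes. Of 45598 probes, 21109 (46.3%) were named through RefSeq accessions and a GRCr8 gene table. The 24279 probes well above background on all 3 arrays of 1 group entered 1 fit of all 12 arrays with a mean per group (limma 3.58.1 in R 4.3.3, eBayes, Benjamini-Hochberg, threshold 0.05, two-sided), tested on simulated data. The methods of the study name limma, this adjustment and this threshold, and the arrays of the fit, the filter and the group means were chosen here. A gene was represented by its probe with the highest mean level.

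Members and lists were chosen with earlier results of these data known. Named were every member, from each list up to 3 genes per direction and contrast past the threshold and without overlap between groups, *Nfe2l2*, *Ahr*, *Nr1i2*, *Gclc* and *Gsta1*, and for each tested member the 3 genes of highest Pearson r; some genes that the rule picks are not printed. Lists covered other ABC transporters, uptake carriers, regulators, conjugation and glutathione supply, heme and mitochondrial ABC partners, membrane scaffolds, cyclic nucleotide enzymes and cell type markers.

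The replicate number was taken to mark the independent experiment and, for replicate 3, marks the slide. Deviations from the group mean of arrays with the same number correlated at 0.191 to 0.744 in all 18 pairs over 24279 probes. Arrays of different number and group had -0.663 to 0.475. Only pairs of replicate 3, on slide 2, lay above that range, at 0.638 to 0.744. Pairs of replicate 1 (0.360 to 0.469) and 2 (0.191 to 0.419) lay within it. These ranges alone do not show pairing within slide 1, and a fit with the number as a block was an alternative. The others were quantile normalization, normexp (offset 50) with either normalization, the deposited table, no filter, a filter to probes well above background on every array, the percentile over such probes, only the 6 arrays compared, the slide as a block, each slide alone, eBayes with trend and robust settings, outlier-marked spots kept, the mean over probes of a gene and each array left out. The percentile over all spots and the deposited table with the slide as a block were added after the data were seen.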

Additional observations from a re-analysis of the deposited data

How the results depend on the processing

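Of 42 results for single members, 22 were past the threshold, and none of these 22 changed direction under any alternative run for it, of 29 in all. The share of all tested probes called higher moved with the settings too, and counts of members are to be read beside it. With GR24, pinosylvin and resveratrol it was 31.5%, 8.28% and 7.99% in the main fit. It was 15.4%, 2.25% and 2.35% without the filter, 29.2%, 4.46% and 5% with only the 6 arrays compared, and 36.2%, 16.3% and 14.1% with the replicate block. The 4 members higher with GR24 became 3 without the filter, with only the 6 arrays compared and, of 5 tested, with the filter to every array, 5 with normexp and quantile normalization and in the deposited table with the slide as a block, and 3 to 5 with arrays left out. The 1 member lower with GR24 became 0 with quantile normalization, with normexp under either normalization, in the deposited table, without the filter, with only the 6 arrays compared, with eBayes trend and robust settings, and with the percentile over all spots (added once the data were seen), and it was 0 to 1 with single arrays left out. The 2 members higher with pinosylvin became 1 with normexp and the 75th percentile, in the deposited table, without the filter, with 6 arrays and with eBayes trend and robust settings, became 3 with the replicate block, the slide as a block, the percentile over all spots and the deposited table with the slide as a block, and were 1 to 2 with arrays left out, where the 0 lower became 0 to 1. With quantile normalization, alone or after normexp, 2 were higher with pinosylvin, but *Abcc5* took the place of *Abcb1b*. The 3 members higher with resveratrol became 5 with the replicate block, with the slide as a block and in the deposited table with that block (added then too), became 4 with quantile normalization, normexp and quantile normalization, the deposited table, the filter to every array (of 5 tested), the percentile over such probes, eBayes trend and robust settings and the mean over probes, became 2 without the filter and with 6 arrays, and were 1 to 4 with arrays left out. The 4 higher with GR24 than with pinosylvin were 3 with normexp and the 75th percentile and with the filter to every array, and 5 in 7 settings beside the left-out arrays, among them quantile normalization, the replicate block and the deposited table. They were 4 to 5 with arrays left out, with 5 without GR24 replicate 2. The 3 higher with GR24 than with resveratrol were 4 with normexp under either normalization, with 6 arrays and in the deposited table with or without the slide as a block. The 1 member lower with GR24 than with resveratrol became 2 with normexp and the 75th percentile, with the replicate block and with the slide as a block. The 2 members lower with pinosylvin than with resveratrol became 1 without the filter, 3 with quantile normalization, the replicate block, the slide as a block, slide 1 alone and the deposited table with the slide as a block, were 2 with 6 arrays, where *Abcc4* lost its call and *Abcc3* gained one, and were 1 to 2 with arrays left out. Beside the calls given with the results, the replicate block changed no other call of a member. Reversals concerned values that had not passed the threshold. For *Abcc3* with GR24 they were -0.69 within slide 2 and -0.0091 to 0.77 with arrays left out. For *Abcc1* with pinosylvin they were -0.012 within slide 2 and -0.045 to 0.23 with arrays left out. For *Abcc2* with pinosylvin they were -0.50 within slide 2 and -0.33 to 0.24 with arrays left out, and with resveratrol -0.34 and -0.24 to 0.33. For *Abcc3* with resveratrol they were -0.10 with normexp and the 75th percentile, -1.14 within slide 2 and -0.18 to 0.60 with arrays left out. Between pinosylvin and resveratrol they were 0.014 for *Abcc1* with the mean over its probes, 0.077 for *Abcc2* with normexp and the 75th percentile, -0.22 to 0.069 for *Abcc2* with arrays left out, and -0.10 to 0.014 for *Abcc5* with arrays left out. For *Nfe2l2* with pinosylvin they were -0.030 within slide 2 and -0.036 to 0.092 with arrays left out. For *Nr1i2* with arrays left out they were -0.46 to 0.0035 with pinosylvin and -0.34 to 0.013 with resveratrol. The cause was not tested. *Abcc2* and *Abcc3* lay near background on several arrays, which limits their values, and within slide 2 each group had 1 array, so its values carry no test.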
